A study of Mus musculus with 11 samples.

Results

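Prnp and Prn, the overlapping rows of the mouse prion locus, were followed through single-nucleus RNA-seq of the cortex of 11 mice, as 2 of the 31053 genes in the count matrices. They were chosen by symbol because the P301S tau transgene of these mice is driven by the prion promoter, and because their unique molecular identifier (UMI) counts differed between P301S+ and non-transgenic mice. Those counts are therefore given as a description and without a test.

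Prnp encodes the cellular prion protein, PrP, a glycoprotein that a glycosylphosphatidylinositol (GPI) anchor holds on the outer cell surface. It is made by neurons and glia, and its conversion to a misfolded, self-propagating form underlies the prion diseases. Prnd, the next gene on the chromosome, encodes doppel, a PrP-like protein known mainly from testis, and Prn is annotated as a longer gene that runs from the first Prnp exon through Prnd. In PS19 mice a human tau cDNA with the P301S mutation of frontotemporal dementia is placed under mouse prion promoter sequence, so the transgene and the endogenous gene have promoter sequence in common.

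The non-transgenic group held 4 mice, labelled ikbkb+/+. The P301S+ mice comprised 3 ikbkb+/+;P301S+ mice, in which IkB kinase beta was intact, 2 ikbkb-/-;P301S+ mice, in which microglial Ikbkb was deleted, and 2 ikbkbCA;P301S+ mice, in which microglia made constitutively active IKKb. In the sample titles 2 non-transgenic mice, 2 ikbkb+/+;P301S+ mice and both ikbkb-/-;P301S+ mice belong to a line with floxed Ikbkb, while 2 non-transgenic mice, 1 ikbkb+/+;P301S+ mouse and both ikbkbCA;P301S+ mice carry a Cre-dependent active IKKb allele in the Rosa26 locus. Only the ikbkb-/-;P301S+ and ikbkbCA;P301S+ mice had the inducible Cre that Cx3cr1 drives in microglia, and in the study's methods mice without Cre received tamoxifen as well. All 11 mice are labelled female, while the study's methods name male mice for RNA-seq. Each library held 54229 to 100827 UMIs of Xist, the transcript of the inactive X chromosome, and 87 to 126 UMIs of 4 Y-linked genes together, in the nuclei used. The non-transgenic mice were 9.8 to 10.85 months old. The ikbkb+/+;P301S+ mice were 9.15, 10.03 and 10.75 months old, the ikbkb-/-;P301S+ mice 8.39 and 9.15, and the ikbkbCA;P301S+ mice 10.85 and 9.8.

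The endogenous promoter is printed because both rows start from it and because the transgene is described as driven by the mouse prion promoter. How much of these bases the transgene carries was not tested, since its sequence was not used here. In the RefSeq promoter table (GRCm38.p6) the entries for Prnp and Prn held the same 250 bases before the Prnp start, on the plus strand at chr2:131909678-131909927. Capitals mark motif matches on either strand.
Prnp and Prn upstream: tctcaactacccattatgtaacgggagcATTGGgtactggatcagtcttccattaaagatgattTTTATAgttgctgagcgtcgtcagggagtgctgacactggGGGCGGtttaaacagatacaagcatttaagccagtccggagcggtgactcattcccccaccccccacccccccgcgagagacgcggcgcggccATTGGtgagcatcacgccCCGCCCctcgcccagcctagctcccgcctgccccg
Searched as GGGCGG and its reverse CCGCCC, the GC box that Sp1 can bind was found at 2 places, starting 146 and 35 bases before the start. The CCAAT box, searched as CCAAT and ATTGG, was found at 222 and 53 bases before it, and the letters TATAAA or TTTATA occurred once, at 186 bases. None of these matches overlapped another. Of 32817 mouse promoter windows of the same length, 32.7% held the GC box letters, 33.8% the CCAAT letters and 12.4% the TATAAA letters, so each is common. The window was richer in GC than most, at 58.8% against a median of 52.4%, and it held 17 CpG dinucleotides against a median of 6.

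How the annotation divides the locus decides which reads could be counted for each row. In GENCODE M21 (GRCm38), Prnp (ENSMUSG00000079037) covers chr2:131909928-131938429 and Prn (ENSMUSG00000098754) chr2:131909957-131956130, both on the plus strand. They share 28473 bases. Prnp has 29 bases that no other gene covers on its strand, which is 0.102% of its span, and they are the very first bases of the gene, at chr2:131909928-131909956.
Bases of Prnp outside Prn: cccctttccactcccggctcccccgcgtt
Prn has 12431 such bases, 26.9% of its span, between the end of Prnp and the start of Prnd (ENSMUSG00000027338, chr2:131950861-131956130), and Prnd has none. A read that fits more than 1 gene on a strand is left uncounted by Cell Ranger. In these matrices 651 of the 652 genes without a base of their own had no UMI in any nucleus, among them Prnd, and the 149 genes with under 1% of their span to themselves had a median of 8 UMIs over all nuclei, against 646 for the 29030 genes whose whole span is theirs. The UMIs of Prnp and Prn thus describe small stretches of the annotated locus, and neither row is a measure of how much PrP mRNA the nuclei held. Whether UMIs of these rows in P301S+ mice came from the transgene or from the endogenous gene was not tested.

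**Figure D1:**
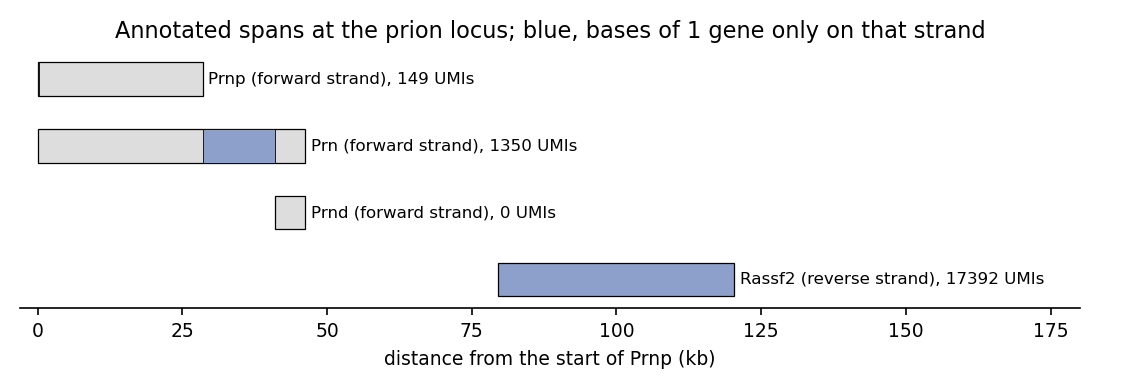
Map of the prion locus, with distance from the Prnp start in kilobases on the x axis. Bars are the annotated spans of Prnp, Prn, Prnd and the downstream gene Rassf2, each with its UMIs over all nuclei. Blue marks bases that no other gene covers on that strand, which amount to 29 in Prnp (drawn wider to be seen), 12431 in Prn and none in Prnd.

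The libraries held 72007219 to 93205362 UMIs in 7500 to 12315 barcodes, and 103065 nuclei were used after filters and removal of likely doublets. The study's cell names were rebuilt by clustering, and each name rests on markers raised in its cluster, such as 6 of 7 for the larger and 3 of 7 for the smaller excitatory cluster, 7 of 7 for astrocytes and 9 of 9 for microglia. The tissue is labelled cortex, and 8880 nuclei had the Drd1, Drd2 and Ppp1r1b profile of striatal projection neurons. A further cluster of 7720 nuclei with few UMIs was left unnamed, although 4 of 9 inhibitory neuron markers were raised in it, with 4 Prn UMIs in non-transgenic and 8 in P301S+ mice. Counts are sums over nuclei, so the spread given is that between mice.

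Both rows were sparse. Of the nuclei used, 149 had a Prnp UMI and 1329 a Prn UMI, 4 had both, and no nucleus had more than 2 Prn UMIs. Before any filter, the 4 non-transgenic libraries held 7, 10, 8 and 9 Prnp UMIs. The ikbkb+/+;P301S+ libraries held 24, 21 and 17, the ikbkb-/-;P301S+ libraries 19 and 23, and the ikbkbCA;P301S+ libraries 29 and 12. Raw Prnp UMIs were thus 7 to 10 in the non-transgenic and 12 to 29 in the P301S+ libraries, before scaling to depth. The lowest P301S+ count came from ikbkbCA;P301S+ mouse 2, whose library held the most UMIs (93205362). Scaled to 1000000 UMIs a library, the lowest P301S+ value was 0.129 and the highest non-transgenic value 0.123. How many other genes separate the groups in raw UMIs was not counted.

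Raw Prn UMIs numbered 63, 72, 58 and 75 in the non-transgenic libraries. They numbered 144, 251 and 188 in the ikbkb+/+;P301S+ libraries, 194 and 145 in the ikbkb-/-;P301S+ libraries, and 150 and 230 in the ikbkbCA;P301S+ libraries. The ranges were thus 58 to 75 in the non-transgenic and 144 to 251 in the P301S+ libraries, before scaling to depth. Scaled to 1000000 UMIs a library, Prn averaged 0.846 ± 0.122 (SD, n = 4) in non-transgenic and 2.24 ± 0.511 (SD, n = 7) in P301S+ mice, a fold of 2.65, and Prnp averaged 0.107 ± 0.0153 and 0.251 ± 0.0675, a fold of 2.34. These contrasts chose the rows and carry no p-value.

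Prnp made up a like share of the UMIs of both rows in the 2 kinds of mice. It was 11.3% of 302 UMIs in non-transgenic mice (95% exact binomial interval 7.92 to 15.4%) and 10.0% of 1447 in P301S+ mice (8.52 to 11.7%). The extremes were the pair of ikbkbCA;P301S+ mice, at 16.2% (11.1 to 22.4%) in mouse 1 and 4.96% (2.59 to 8.50%) in mouse 2. These intervals, like the floors given further on, cover counting error only.

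In the nuclei used, levels were set as CPM, counts per 1000000 UMIs with edgeR's TMM factors. Prn over all nuclei lay at 0.828, 0.876, 0.769 and 0.963 CPM in the non-transgenic mice. It lay at 1.74, 3.22 and 2.26 CPM in the ikbkb+/+;P301S+ mice, 2.12 and 1.99 in the ikbkb-/-;P301S+ mice, and 1.83 and 2.28 in the ikbkbCA;P301S+ mice. The lowest P301S+ mouse was thus 1.74 and the highest non-transgenic mouse 0.963, and the highest of all was ikbkb+/+;P301S+ mouse 2. The means were 0.859 ± 0.0817 (SD, n = 4) and 2.21 ± 0.490 (SD, n = 7), a fold of 2.57. Of 20158 genes tested over all nuclei, 71 (0.352%) had all 7 P301S+ mice above all 4 non-transgenic mice, and Prn was 1 of them by the rule that chose it.

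Prnp over all nuclei lay at 0.0871, 0.125, 0.123 and 0.142 CPM in the non-transgenic mice. The P301S+ values were 0.304, 0.202 and 0.225 CPM with intact Ikbkb, 0.232 and 0.284 with microglial Ikbkb deleted, and 0.298 and 0.0946 with active IKKb. With ikbkbCA;P301S+ mouse 2 inside the non-transgenic range, 6 of 7 P301S+ mice were higher than every non-transgenic mouse. The fold of the means was 1.96.

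**Figure D2:**
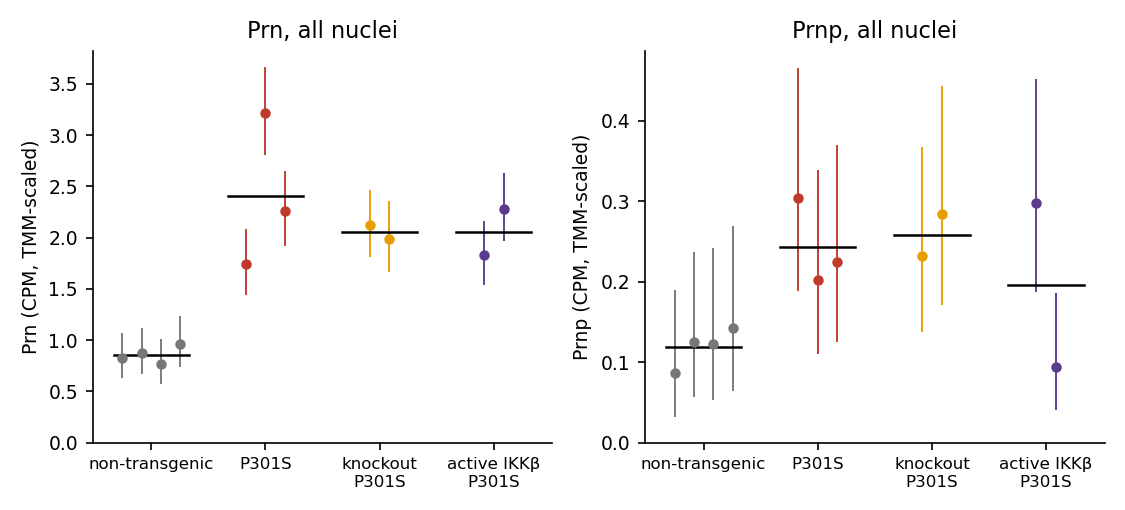
Prnp and Prn in each mouse over all nuclei used, in CPM with TMM factors on the y axis, by group on the x axis. Points are mice with 95% exact Poisson intervals of their counts, and horizontal bars are group means. Prn separates the 4 non-transgenic mice (0.769 to 0.963) from the 7 P301S+ mice (1.74 to 3.22), while for Prnp 1 ikbkbCA;P301S+ mouse falls among the non-transgenic mice.

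The fold of Prn varied between cell types, and the differences between types were not tested. Among the types with at least 20 Prn UMIs in the non-transgenic mice its log2 value was 1.78 in excitatory neuron-like, 1.57 in inhibitory neuron-like, 0.70 in oligodendrocyte-like and -0.26 in astrocyte-like nuclei. With nuclei thinned to 1000 UMIs these became 2.26, 1.48, 1.48 and -0.19, so inhibitory neuron-like and oligodendrocyte-like nuclei had the same value, on 2 and 7 Prn UMIs in the non-transgenic mice. Of the 1329 nuclei with a Prn UMI, 21 had more than 1. At such counts, fewer nuclei with the transcript and less of it per nucleus cannot be told apart.

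Excitatory neuron-like nuclei gave 30, 37, 35 and 33 Prn UMIs in the non-transgenic mice, from 15307 nuclei. The counts were 78, 138 and 102 in ikbkb+/+;P301S+, 109 and 98 in ikbkb-/-;P301S+, and 90 and 122 in ikbkbCA;P301S+ mice. The smallest P301S+ count was more than 2 times the largest non-transgenic one. As CPM, the means were 0.791 ± 0.126 (SD, n = 4) and 2.71 ± 0.740 (SD, n = 7), a fold of 3.43, and the groups did not overlap, as for 61 of 18067 genes in these nuclei (0.338%). Pooled over mice, Prn was higher in P301S+ mice in both excitatory clusters. The larger gave 0.780 Prn counts per 1000000 UMIs in non-transgenic and 2.73 in P301S+ mice, and the smaller 0.707 and 2.42.

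Within the line with floxed Ikbkb alone the log2 fold of Prn in excitatory neuron-like nuclei was 1.83, and within the line with the active IKKb allele it was 1.74. Prnp in the same nuclei had a log2 fold of 1.33 in the floxed line and 0.07 in the active line, on 4 to 13 UMIs a mouse, and 5 of 7 P301S+ mice were above the non-transgenic range. The mean of Prnp was 0.142 ± 0.0437 CPM (SD, n = 4) in non-transgenic and 0.237 ± 0.0791 CPM (SD, n = 7) in P301S+ mice. Of the 18067 genes, 8 had a larger fold of means than Prn (0.0443%) and 121 a larger one than Prnp (0.67%). This contrast chose the rows, so their ranks are a description and no measure of chance.

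In inhibitory neuron-like nuclei the non-transgenic mice had 10, 1, 2 and 9 Prn UMIs. The P301S+ mice had 14, 37 and 14 with intact Ikbkb, 25 and 13 with the deletion, and 12 and 37 with active IKKb. All 7 lay above the non-transgenic mice, narrowly by CPM, with 1.31 as the lowest P301S+ value and 1.14 as the highest non-transgenic value. The means were 0.616 ± 0.50 (SD, n = 4) and 1.83 ± 0.609 (SD, n = 7), a fold of 2.96, in a class where 59 of 15487 genes (0.381%) separated the groups in this way. The log2 fold was 1.93 in the floxed and 1.19 in the active line. Prnp had 2 UMIs in the non-transgenic mice and 16 in the P301S+ mice here.

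Striatal projection neuron-like nuclei had a lower fold than the other neurons, by an amount that changed with depth. The non-transgenic mice had 3, 7, 1 and 4 Prn UMIs, and the P301S+ mice 9, 8 and 7, then 5 and 4, then 12 and 2, in the order of groups used above. By CPM the groups overlapped, with 1 of 7 P301S+ mice above the non-transgenic range. The means were 0.567 ± 0.283 (SD, n = 4) and 0.747 ± 0.25 (SD, n = 7), a fold of 1.32. Thinned to 1000 UMIs a nucleus the log2 fold was 1.47 in place of 0.40, beside 1.48 in inhibitory neuron-like nuclei, and rested on 1 and 8 UMIs. Per-line values were a log2 fold of 0.04 in the floxed and 0.91 in the active line. Whether the fold differs between neuron classes was not tested, since the contrast chose the rows.

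Astrocyte-like nuclei had the highest Prn level of the non-transgenic mice and no excess in P301S+ mice. Non-transgenic mice had 7, 9, 7 and 7 UMIs, or 3.34, 4.68, 2.45 and 2.41 CPM. The P301S+ mice had 3.90, 2.53 and 1.81 CPM with intact Ikbkb, 3.20 and 2.58 with the deletion, and 3.37 and 1.37 with active IKKb. No P301S+ mouse was above the non-transgenic range and the fold of means was 0.832. The log2 fold was -0.40 in the floxed and -0.15 in the active line, and the counts behind it were 5 to 11 UMIs a mouse.

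Transcripts typical of neurons were low in the same nuclei. The summed level of 8 neuronal transcripts (Meg3, Snap25, Syt1, Rbfox3, Camk2a, Nrgn, Grin2a and Slc17a7) averaged 2688 CPM in non-transgenic astrocyte-like nuclei, with a range of 2347 to 3223 over mice, against 17954 CPM in excitatory neuron-like nuclei. For each 1000 UMIs of those transcripts there were 1.2 Prn UMIs in astrocyte-like and 0.0440 in excitatory neuron-like nuclei of the non-transgenic mice. In the P301S+ mice the ratios were 1.01 and 0.152. The part of free neuronal RNA in the Prn of astrocyte-like nuclei was not tested.

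Oligodendrocyte-like nuclei had 5, 7, 4 and 5 Prn UMIs in the non-transgenic mice. In the P301S+ groups they had 6, 26 and 12 with intact Ikbkb, 9 and 6 with the deletion, and 11 and 19 with active IKKb. The means were 1.58 ± 0.284 (SD, n = 4) and 2.56 ± 1.01 CPM (SD, n = 7), a fold of 1.63, and 6 of 7 P301S+ mice lay above the non-transgenic range of 1.18 to 1.85 CPM. The highest was again ikbkb+/+;P301S+ mouse 2, at 4.57 CPM. Their neuronal transcripts stood at 4634 CPM in non-transgenic and 4419 CPM in P301S+ mice, and the part of free neuronal RNA in the Prn counts was not tested.

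Oligodendrocyte precursor-like nuclei, the dividing glia from which oligodendrocytes arise, held few UMIs. Prn had 1, 0, 1 and 0 in the non-transgenic mice, against 4, 6 and 5 with intact Ikbkb, 1 and 2 with the deletion, and 1 and 5 with active IKKb. The 3 ikbkb+/+;P301S+ mice and ikbkbCA;P301S+ mouse 2 had the highest counts. A difference in CPM of 0.471 against 2.65 (a fold of 5.62) rests on 2 and 24 UMIs, and thinned to 1000 UMIs a nucleus the log2 fold was 0.59 in place of 2.49. Without non-transgenic mouse 3 it was 3.3. Prnp was not detected here, where 3 counts would be 1.95 to 3.54 CPM in a mouse.

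Microglia-like nuclei, the cells in which Ikbkb was altered, held next to no UMIs of either row. Prn had 1 UMI in 1089 nuclei of the non-transgenic mice and 5 UMIs in 3318 nuclei of the P301S+ mice, and Prnp had 1 UMI in each. Pooled over mice, Prn stood at 0.472 counts per 1000000 UMIs in non-transgenic (95% exact Poisson interval 0.0120 to 2.63) and 0.680 in P301S+ mice (0.221 to 1.59). These intervals leave out the spread between mice, and the non-transgenic one is too wide to compare the groups. Prn averaged 2.57 ± 2.46 CPM (SD, n = 2) in the ikbkb-/-;P301S+ mice, against 0.220 CPM in the ikbkb+/+;P301S+ and 0.305 CPM in the ikbkbCA;P301S+ mice, on 3, 1 and 1 UMIs. Fibroblast-like, mural, endothelial and ependymal or choroid plexus-like nuclei gave 0 or 1 Prn UMI a class in the non-transgenic mice together and 1 to 3 in the P301S+ mice.

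**Figure D3:**
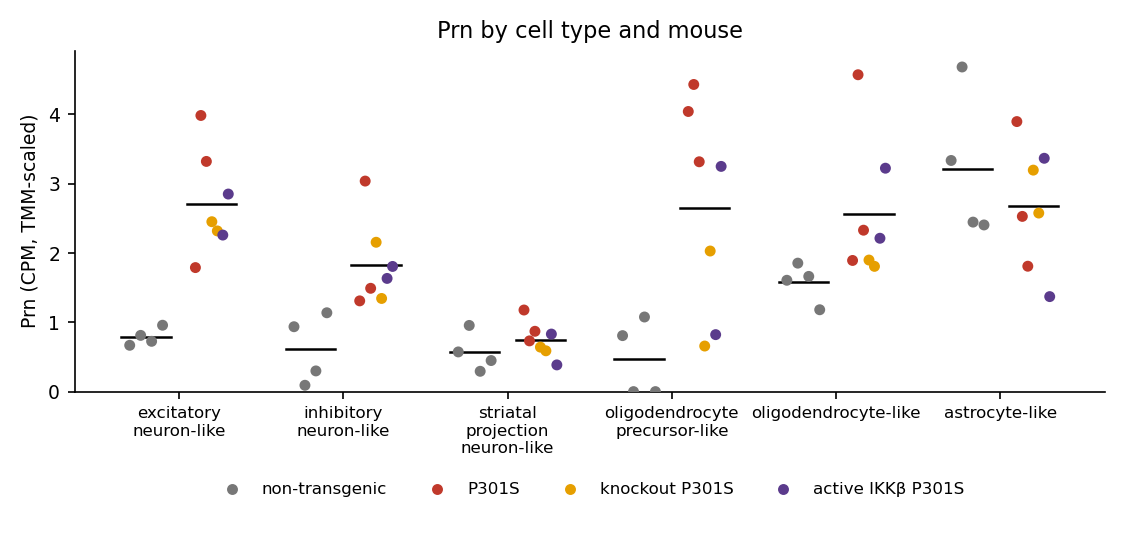
Prn in 6 cell classes, in CPM with TMM factors on the y axis. Points are mice, coloured by group, and horizontal bars are means over the 4 non-transgenic and the 7 P301S+ mice. The groups are apart in the excitatory and inhibitory neuron-like classes and overlap in all other classes drawn.

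Ordered by level in the non-transgenic mice, Prn was highest in astrocyte-like nuclei (2.41 to 4.68 CPM), then in oligodendrocyte-like (1.18 to 1.85 CPM) and excitatory neuron-like nuclei (0.668 to 0.958 CPM), and the ranges of these neighbours did not overlap. Inhibitory neuron-like, striatal projection neuron-like, precursor-like and microglia-like nuclei followed with means of 0.466 to 0.616 CPM and overlapping ranges. This order is per UMI of a class, and classes differed in UMIs per nucleus. By nuclei, Prn had 30 UMIs in 2330 astrocyte-like, 135 in 15307 excitatory neuron-like and 21 in 5639 oligodendrocyte-like nuclei. It had 22 in 4062 inhibitory and 15 in 2565 striatal projection neuron-like nuclei. On that scale oligodendrocyte-like nuclei came after the neuron classes. In the P301S+ mice the means of excitatory neuron-like, astrocyte-like, precursor-like and oligodendrocyte-like nuclei lay between 2.56 and 2.71 CPM and did not differ beyond the spread of the mice. Astrocyte-like nuclei gave 13.0% of the Prn UMIs of non-transgenic mice and 4.38% of those of P301S+ mice, with 6.57% and 6.33% of the nuclei. Excitatory neuron-like nuclei gave 58.4% and 65.9%, with 43.2% and 34.9% of the nuclei and 63.5% and 55.4% of all UMIs.

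The contrasts within P301S+ mice did not choose the rows and were tested. They ask whether altering IKKb in microglia moved the counts of these rows in any class, whatever their origin. Sums per mouse were fitted with edgeR's quasi-likelihood test with Benjamini-Hochberg adjustment over all genes of a class. The intervals are 95% intervals from the standard errors by the normal distribution, so they are somewhat narrower than the test itself implies. No test of Prnp or Prn passed.

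Deleting Ikbkb in microglia left Prn in excitatory neuron-like nuclei at 2.39 ± 0.0940 CPM (SD, n = 2), against 3.03 ± 1.13 CPM (SD, n = 3) in ikbkb+/+;P301S+ mice. The edgeR log2 fold change was -0.34 ± 0.28 (SE), adjusted p = 0.748, with an interval of -0.89 to 0.22. It was -0.082 without ikbkb+/+;P301S+ mouse 2 and -0.62 without mouse 1 of that group. Over all nuclei it was -0.23 ± 0.24 (SE), adjusted p = 0.757 by edgeR. With age as a covariate it was -0.25 ± 0.33 (SE), adjusted p = 0.932 by edgeR. The ikbkb-/-;P301S+ mice were 8.39 and 9.15 months old, against 9.15, 10.03 and 10.75 months in the ikbkb+/+;P301S+ mice. Age and the deletion thus partly go together in this contrast. In oligodendrocyte-like nuclei the log2 fold change of Prn was -0.72 ± 0.45 (SE), edgeR adjusted p = 0.515, with an interval of -1.60 to 0.17. The ikbkb+/+;P301S+ mice lay at 1.89, 4.57 and 2.33 CPM there, and the ikbkb-/-;P301S+ mice at 1.90 and 1.81. Without ikbkb+/+;P301S+ mouse 2, the highest of them, Prn did not pass the filter on low counts and was not fitted. The 8 neuronal transcripts had a median log2 change of 0.49 in the same contrast and class, with 5 at an unadjusted p under 0.05 and none called by edgeR, and their part in the Prn value was not tested. Prnp over all nuclei differed by 0.08 ± 0.42 (SE), edgeR adjusted p = 0.964. The intervals include falls in Prn from its level with intact Ikbkb, no change and rises, so an equal level is not shown.

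Active IKKb in microglia went with a Prn level of 2.56 ± 0.418 CPM (SD, n = 2) in excitatory neuron-like nuclei. The log2 fold change against ikbkb+/+;P301S+ mice was -0.23 ± 0.28 (SE), with an interval of -0.79 to 0.32 and an edgeR adjusted p of 0.869. It was -0.18 ± 0.54 (SE) in inhibitory neuron-like and -0.16 ± 0.39 (SE) in oligodendrocyte-like nuclei, with edgeR adjusted p of 0.979 and 0.981. For Prnp it was -0.33 ± 0.43 (SE) over all nuclei, edgeR adjusted p = 0.896. Without ikbkb+/+;P301S+ mouse 2, the highest Prn library, the log2 change over all nuclei was 0.03 for both the deletion and active IKKb.

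Few genes of any kind passed these contrasts in the classes where the rows were tested. edgeR called 0 of 20158 genes (0.0%) for the deletion over all nuclei and 0 of 18067 (0.0%) in excitatory neuron-like nuclei, with 2067 and 1624 genes at an unadjusted p under 0.05 and with 7 and 16 genes called by DESeq2. For active IKKb it called 1 gene in each, 0.00496% and 0.00553%. Where Prn could not be fitted, in precursor-like nuclei, the ikbkb+/+;P301S+ mean was 3.93 ± 0.566 CPM (SD, n = 3) and the means were 1.34 with the deletion and 2.04 with active IKKb. A two-sided exact permutation test gave p = 0.1 for each, which is the smallest value that 3 mice against 2 can give. With the deletion, the neuronal transcripts in precursor-like nuclei had a median log2 change of 0.47, with 6 of 8 at an unadjusted p under 0.05 and none called by edgeR. Of 20 such tests of the rows in classes where they could not be fitted, 5 reached that value, and the smallest adjusted p was 0.4 by the same permutation tests. The other 3 were Prn in microglia-like nuclei with the deletion, at 2.57 against 0.220 CPM on 3 and 1 UMIs, and Prnp in inhibitory neuron-like and astrocyte-like nuclei with active IKKb, where the difference was -0.256 and -0.633 CPM. With the deletion, the neuronal transcripts in microglia-like nuclei had a median log2 change of 0.39, with 3 of 8 at an unadjusted p under 0.05. None was called by edgeR, and their part in the Prn value was not tested.

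Among the other genes tied to PrP, none passed between P301S+ and non-transgenic mice. The prion family offered a single further gene with counts. Sprn, which encodes the PrP-like protein shadoo, lay at 11 ± 1.05 CPM (SD, n = 4) in excitatory neuron-like nuclei of non-transgenic and 11.5 ± 2.04 CPM (SD, n = 7) of P301S+ mice, and its log2 fold change was 0.06 ± 0.13 (SE). Mapt, the mouse gene for tau, the protein that the transgene supplies in its human form, lay at 533 ± 48.3 and 577 ± 36.1 CPM. Its log2 fold change was 0.11 ± 0.07 (SE), edgeR adjusted p = 0.998.

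Of 13 genes for PrP partners, trafficking and shedding, all were tested in excitatory neuron-like nuclei and none was called, and their median log2 fold change was -0.02 beside 4.3e-05 over all genes. Adam10, the protease that sheds PrP, lay at 85.9 CPM in non-transgenic and 83.8 CPM in P301S+ mice. Grm5, a metabotropic glutamate receptor that acts as a co-receptor for PrP, lay at 1683 and 1451 CPM. Adgrg6, a Schwann cell receptor for a PrP fragment, lay at 20.3 and 16.6 CPM, with an unadjusted p of 0.00793 and an edgeR adjusted p of 0.998. Of 19 genes that build and attach GPI anchors 18 could be tested and none was called, with a median of -0.0040.

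Over the classes, in the comparisons of P301S+ with non-transgenic mice and of each IKKb change with ikbkb+/+;P301S+ mice, the only called member of these lists was Lrp1 in microglia-like nuclei, an endocytic receptor that takes up PrP and tau among many ligands. It lay at 340 to 473 CPM in the 3 ikbkb+/+;P301S+ mice and at 211 and 218 CPM in the ikbkbCA;P301S+ mice. Lrp1 fell by 0.87 ± 0.18 (SE) on the log2 scale with active IKKb, edgeR adjusted p = 0.0116, in a contrast where 143 of 8931 genes (1.6%) were called. The call was lost with breeding line in the fit (adjusted p = 0.0857), without ikbkb+/+;P301S+ mouse 2 (0.106), and without either ikbkbCA;P301S+ mouse (0.0947 and 0.0910).

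None of the genes around the endogenous locus passed the test with the transgene. Of 16 other genes in the matrices within 500 kb on chromosome 2, 13 could be tested and edgeR called none between P301S+ and non-transgenic mice, over all nuclei or in excitatory neuron-like nuclei. There the log2 fold changes ran from -0.28 (Prokr2, a prokineticin receptor) to 0.53 (Gm14285, an antisense transcript), with a median of -0.00014. Rassf2, the nearest gene downstream of the locus and a Ras association protein, lay at 5.11 ± 1.18 CPM (SD, n = 4) in non-transgenic and 6.02 ± 2.01 CPM (SD, n = 7) in P301S+ mice, and its change was 0.20 ± 0.20 (SE). The nearest tested gene upstream, 5330413P13Rik, lay at 3.19 ± 0.450 and 2.66 ± 0.464 CPM. Slc23a2, the neuronal vitamin C transporter and the most abundant of them, lay at 170 ± 4.85 and 175 ± 10.4 CPM. Prnd had 0 UMIs, Erv3 had 10 and 4921508D12Rik had 35 over all nuclei, and these were not tested.

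**Figure D4:**
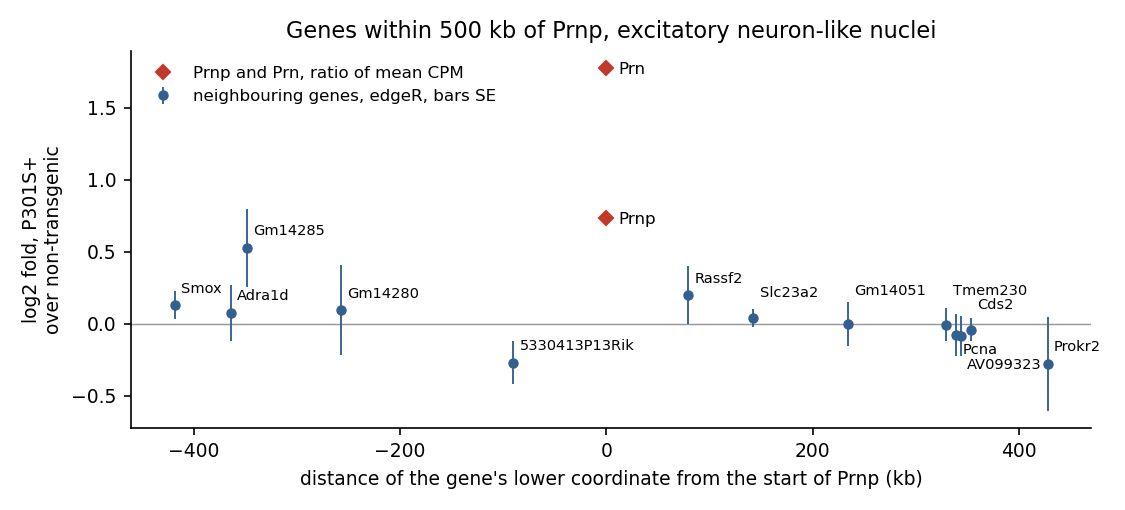
Log2 fold change between P301S+ and non-transgenic mice in excitatory neuron-like nuclei on the y axis, against the distance of each gene's lower coordinate from the Prnp start in kilobases on the x axis. Blue points are the tested neighbours with standard errors, and they lie between -0.28 and 0.53. Red diamonds are the log2 ratios of mean CPM of Prn (1.78) and Prnp (0.74), drawn as a description because this contrast chose them.

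Within excitatory neuron-like nuclei the genes whose levels were most like those of Prn over the 11 mice were Gm43049 (Pearson's r = 0.928 of log2 CPM), 4930590L14Rik (0.923), Gm32754 (0.913), Gm14029 (0.908) and Alpk1 (0.902), out of 18065 compared. The 11 points share their libraries, and they fall into the 4 non-transgenic and 7 P301S+ mice, so these values mostly restate that split. Over the 7 P301S+ mice alone the same 5 genes gave 0.304, -0.445, -0.0752, 0.347 and -0.0368. For Prnp the closest were Aspm (0.886), Cd59a (0.867), E130304I02Rik (0.846), Evc2 (0.834) and Synpo2 (0.824), at 4 to 13 Prnp UMIs a mouse. Prnp and Prn gave r = 0.451 with each other. Over the means of 7 cell classes in non-transgenic mice, Prn was most like Traf7 and Dxo (0.993 each), Tbl2 (0.992), 2900076A07Rik (0.991) and Gm28529 (0.988), and Prnp most like Ropn1, Gm11775, Gm13749, AC163633.2 and Ccr4 (0.998 each). The Prnp means outside excitatory neuron-like nuclei rest on 0 to 3 UMIs a class, and its highest, in microglia-like nuclei, on 1 UMI, so that order restates single counts.

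Of the genes like Prn, 4 lie on chromosome 3 and were called between P301S+ and non-transgenic mice in excitatory neuron-like nuclei, where edgeR called 7 of 18067 genes (0.0387%). Over all nuclei it called 6 of 20158 genes (0.0298%), and Alpk1 was not among them (adjusted p = 0.861). Both totals cover every gene tested, the rows included, and are given as background only. The likeness of these 4 genes to Prn mostly restates the same split of mice. Their calls are therefore not a result about genes that follow Prn. Gm43049, a long noncoding RNA at chr3:140692038-140760704, lay at 0.0668, 0.0439, 0.0622 and 0 CPM in the non-transgenic mice. In the P301S+ mice it lay at 11, 14.5 and 9.35, then 8.48 and 7.60, then 11.4 and 8.11 CPM. It was near absent from every non-transgenic mouse and present in every P301S+ mouse, and the log2 change was 7.66 ± 0.30 (SE), with an edgeR adjusted p of 1.90e-07. It was 6.44 with nuclei thinned to 1000 UMIs.

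The next 2 behaved in the same way at lower levels. 4930590L14Rik (chr3:140951876-140953247) had 1 UMI in the excitatory neuron-like nuclei of all non-transgenic mice and 460 in those of P301S+ mice, and its log2 fold change was 7.55 ± 0.44 (SE), edgeR adjusted p = 9.88e-06. Gm32754 (chr3:140904998-140917459) had 5 and 278 UMIs and its log2 change was 4.97 ± 0.43 (SE), with an edgeR adjusted p of 0.000366. Leaving out 1 mouse at a time, the log2 change ran from 7.22 to 9.07 for 4930590L14Rik, highest without non-transgenic mouse 2, and from 4.54 to 5.74 for Gm32754, highest without non-transgenic mouse 1. In striatal projection neuron-like nuclei Gm43049 had 2 UMIs in non-transgenic and 693 in P301S+ mice, and the log2 change was 6.79 ± 0.43 (SE). In astrocyte-like nuclei it had 0 and 29 UMIs and in microglia-like nuclei 0 and 20.

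Alpk1, a kinase that senses bacterial sugars (chr3:127670310-127780527), passed the edgeR test in excitatory and inhibitory neuron-like nuclei (adjusted p = 0.00595 in the latter) but not in striatal projection neuron-like nuclei, where the log2 change was 1.54 ± 0.42 (SE) and the adjusted p 0.752. In excitatory neuron-like nuclei it was 8.61 ± 1.52 CPM (SD, n = 4) in non-transgenic and 21.5 ± 3.63 CPM (SD, n = 7) in P301S+ mice, and the log2 change was 1.31 ± 0.11 (SE), with an edgeR adjusted p of 0.000307. In astrocyte-like nuclei, where it was highest, it lay at 224 ± 26.0 and 180 ± 32.5 CPM and was not called, at -0.33 ± 0.11 (SE).

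A further 2 genes called in excitatory neuron-like nuclei were named after their values were seen. The counts of called genes over all nuclei and in these nuclei cover every gene tested, the rows included. Nothing is read from them about the rows, which this contrast chose. Rwdd3, a regulator of SUMO conjugation on chr3:121155398-121171695, lay at 5.45 ± 0.926 and 9.63 ± 1.0 CPM, and the log2 change was 0.81 ± 0.11 (SE), with an edgeR adjusted p of 0.0277. Haus7, a subunit of the augmin complex on chrX:73437315-73459044, lay at 1.30 ± 0.182 and 3.75 ± 0.629 CPM, and the log2 change was 1.5 ± 0.14 (SE), with an edgeR adjusted p of 0.000554. The Rwdd3 call was lost under 11 of the 19 alternative settings, with adjusted p of up to 0.527, whereas that of Alpk1 held under all 19. The other genes with a larger fold of means than Prn, which were Oasl2, Ttr, Cdrt4, Gm29374 and Ctse, were not called and had 10 to 42 UMIs in the non-transgenic mice, or 7 for Oasl2.

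**Figure D5:**
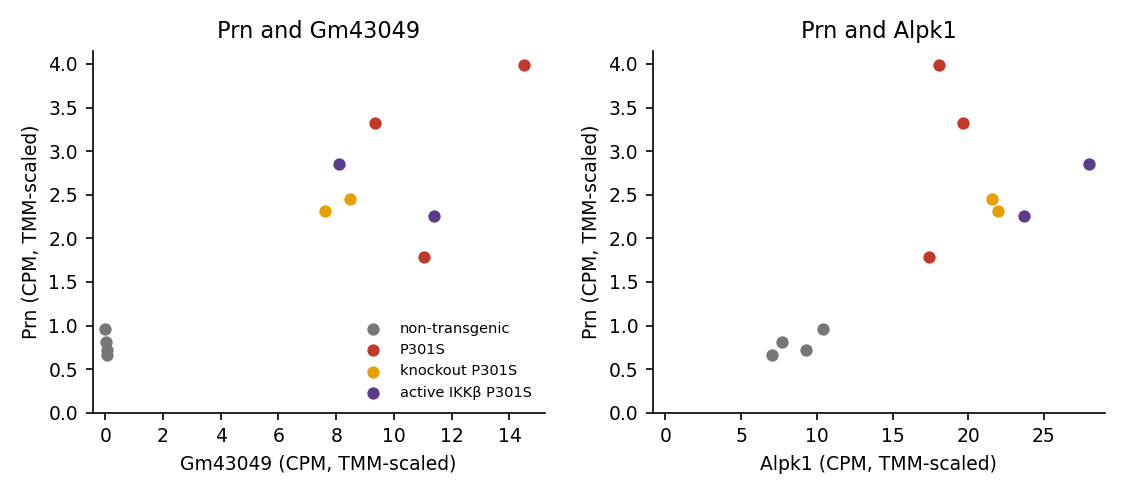
Prn on the y axis against Gm43049 (left) and Alpk1 (right) on the x axis in excitatory neuron-like nuclei, in CPM with TMM factors. Points are mice coloured by group. Gm43049 lies at or under 0.0668 in the 4 non-transgenic mice and at 7.60 to 14.5 in the 7 P301S+ mice, and Alpk1 at 7.04 to 10.4 and 17.4 to 28.0.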

How the data were processed

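Nuclei from cortex of 11 mice were profiled with 10x 3' chemistry, and each sample is a separate mouse. The authors deposited raw UMI counts per gene and barcode, made with Cell Ranger 3.1.0 on mm10 with intron reads counted, per the labels and the study's methods. The annotation version is not given in the sources used here. GENCODE M21 (GRCm38) was used, in which 30934 of 31053 gene IDs matched. Nuclei with 300 to 8000 genes and up to 5% mitochondrial UMIs were kept, and the likeliest doublets by similarity to simulated doublets (0.8% per 1000 nuclei) were removed, 442 to 1203 a library. Library pairs shared at most 44 barcodes. Nuclei were clustered on 2000 variable genes (scikit-learn 1.9.0, 15 components, 20 neighbours) with leidenalg 0.10.2 at resolution 0.1. A cluster was named where at least 3 listed markers were raised 1.5-fold and detected in a share of over 0.05 of its nuclei, thresholds set after the clusters were seen. Clusters of shallow nuclei with no marker of their type among the 10 leading genes, and clusters led by another type's markers, stayed unnamed.

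Counts were summed per mouse and class, and fitted with edgeR 4.0.16 (R 4.3.3; TMM, filterByExpr, quasi-likelihood, 1 term per genotype over all mice, Benjamini-Hochberg adjustment). Genes were called at an adjusted p under 0.05 and an absolute log2 fold change over 0.1. The fit was tested on simulated data. Prn passed the filter on low counts over all nuclei and in 3 classes, and Prnp over all nuclei and in excitatory neuron-like nuclei. Elsewhere scipy 1.17.1 gave exact permutation tests. The exact Poisson or binomial intervals give the counting error only, and the spread between mice is given as SD. Alternatives were DESeq2 1.42.0 as the test, its size factors, no filter, doublets kept, nuclei thinned to 1000 UMIs, breeding line or age as covariates, replicate numbers as a block, and leaving out each mouse. The members and the gene lists were chosen with earlier results of these data known. Named genes were both members, Sprn and Mapt, the genes within 500 kb of the locus, called list members with up to 4 examples, the 5 most like each member by Pearson's r, and up to 10 with a larger fold than Prnp in excitatory neuron-like nuclei.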

Additional observations from a re-analysis of the deposited data

How the results depend on the processing

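Of 153 alternative values for the 9 descriptive folds of Prn and Prnp between P301S+ and non-transgenic mice, 145 moved by less than the spread between mice and none changed direction. Many of the 153 left out 1 mouse, which usually shifts a mean by only part of that spread. The count is therefore no measure of stability. The 8 values that moved further all came from thinned nuclei or from a single breeding line. Thinned to 1000 UMIs a nucleus, the log2 fold of Prn was 2.26 in excitatory neuron-like, 1.47 in striatal projection neuron-like, 1.48 in oligodendrocyte-like and 0.59 in precursor-like nuclei, and that of Prnp over all nuclei 1.91. Within the line with the active allele it was 0.91 for Prn in striatal projection neuron-like and 0.070 for Prnp in excitatory neuron-like nuclei, the latter at 1.33 in the floxed line. The cause was not tested.

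None of the 12 tests of the members between P301S+ groups passed under any of 218 alternatives, with a smallest adjusted p of 0.365, and 16 changed direction. Leaving out 1 mouse at a time, the log2 change of Prn ran from -0.42 to 0.031 over all nuclei for both the deletion and active IKKb. For Prn it ran from -0.54 to 0.34 (deletion) and -0.40 to 0.31 (active IKKb) in inhibitory neuron-like nuclei, and from -0.62 to -0.082 (deletion) and -0.52 to 0.018 (active IKKb) in excitatory neuron-like nuclei. With active IKKb it ran from -0.47 to 0.062 in oligodendrocyte-like nuclei. That range lacks the fit without ikbkb+/+;P301S+ mouse 2, where Prn did not pass the filter on low counts. This mouse lay at 4.57 CPM there, against 1.89 and 2.33 in the others of its group and 2.21 and 3.22 with active IKKb. For Prnp the log2 change ran from -0.074 to 0.26 (deletion) and -1.35 to 0.29 (active IKKb) over all nuclei, and from -0.032 to 0.48 and -0.99 to 0.35 in excitatory neuron-like nuclei. Breeding line as a covariate gave 0.17 for Prn with active IKKb in oligodendrocyte-like nuclei. Doublets kept gave -0.056 for Prnp over all nuclei with the deletion and 0.015 in excitatory neuron-like nuclei with active IKKb.

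Counts of called genes varied more. DESeq2 called 25 genes between P301S+ and non-transgenic mice over all nuclei against 6 by edgeR, and 14 against 7 in excitatory neuron-like nuclei. For active IKKb it called 25 and 7 against 1 and 1, and for the deletion 7 and 16 against 0 and 0. Thinned nuclei gave 2 calls between P301S+ and non-transgenic mice both over all nuclei and in excitatory neuron-like nuclei, and 2 for active IKKb over all nuclei. Age as a covariate gave 3 and 2 calls over all nuclei for these comparisons, and breeding line gave 0 for active IKKb. The call of Haus7 was lost in thinned nuclei alone, at an adjusted p of 0.996.

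The title numbers were not taken to pair mice, since the correlations of the deviations of same-numbered mice of a line were -0.138 to 0.0983. Some same-numbered mice also have the same age. With the replicate block the log2 change of Prn over all nuclei was -0.24 for the deletion and -0.26 for active IKKb, and no call of a member changed.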
